A study of Homo sapiens with 131 samples.

Results

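Long intergenic non-coding RNAs that carry a LINC number in the gene annotation were examined in single mid-S HAP1 cells wherever they left unspliced RNA. A gene was taken when its name was LINC followed by digits alone and its unspliced value was at least 5 in at least 14 of 56 cells. Of 1710 LINC-named genes, 171 met this (10%), and 8348 of all 45404 genes (18.4%) met the same threshold. The genes were chosen by their unspliced counts, so their unspliced level and spread are given as description without a test. The 5 genes that passed with exactly 14 cells were LINC02885, LINC02073, LINC01630, LINC01684 and LINC02438, with medians between 1.75 and 3.40 unspliced counts. Just outside, 7 genes reached 13 cells, among them LINC00354, LINC02698 and LINC01224 with medians of 0, 0.35 and 0.

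HAP1 is a near-haploid human line derived from a chronic myeloid leukaemia culture, so a gene has 1 copy before replication and 2 copies after it. Single cells were sorted from mid-S, and DNA and RNA of the same cell were sequenced by scRR-seq, a method that traps chromatin on beads and takes RNA from the supernatant. The tables held 56 mid-S cells with both readouts, all untreated and from 1 biological experiment, so p-values describe cells of this experiment only. Chromosomes 1, 15 and X were left out by the authors for this line. Replication scores, the percentage of called 40-kb bins in the 2-copy state, ran from 39.7% to 67.2%.

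A long intergenic non-coding RNA is a transcript without a known protein product that is, by its name, transcribed from between coding genes. Many such RNAs are low in abundance, differ between cell types and stay in the nucleus. Most are spliced like messenger RNAs, and reads in their introns come mainly from RNA that is not yet spliced. Early replication is widely associated with open, transcribed chromatin, and late replication with gene-poor, less transcribed chromatin.

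The libraries fell into a set with cell numbers above 65 (27 cells) and a set up to 65 (29 cells). These were seen in the values, and no label calls them a batch. Median unspliced totals were 568578 counts in the later set and 812254 in the first, with all cells between 425181 and 1353931. Mitochondrial shares were 2.57 to 5.55% in the later set and 4.98 to 18.3% in the first. The proliferation genes MKI67, PCNA, TOP2A, MCM2, MCM3 and MCM6 summed to a median of 1951 TPM (978 to 2734). For the other cell types, 6 blood genes summed to 0 to 67.3 TPM, 4 fibroblast genes to 0 to 33.9 TPM and 4 epithelial genes to 1.12 to 111.7 TPM. The medians of these sums were 2.18, 2.555 and 31.1 TPM. Among the same genes, SPI1 and LUM were at 0 in every cell. KRT18 was above 0 in 52 cells (median 23.8 TPM), SPN in 50 (median 2.135 TPM), KRT8 in 36 and COL1A1 in 29. The rest were above 0 in at most 27 cells, and PTPRC reached 58.65 TPM in 1 cell.

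Starts of these genes differ in base composition, and 3 are shown because their RNAs lead the abundance values that follow. LINC01515 had the highest unspliced and spliced levels, LINC00355 the second highest unspliced level from a late-replicating locus, and LINC00662 the third highest spliced level from an even later one. Each is 250 bases before to 50 after the RefSeq start on GRCh38.p14, read 5′ to 3′ on the strand of the gene, with CG dinucleotides in capitals. They lie at chr10:65571175-65571474 (plus strand), chr13:64075962-64076261 (minus strand) and chr19:27793891-27794190 (minus strand).
LINC01515: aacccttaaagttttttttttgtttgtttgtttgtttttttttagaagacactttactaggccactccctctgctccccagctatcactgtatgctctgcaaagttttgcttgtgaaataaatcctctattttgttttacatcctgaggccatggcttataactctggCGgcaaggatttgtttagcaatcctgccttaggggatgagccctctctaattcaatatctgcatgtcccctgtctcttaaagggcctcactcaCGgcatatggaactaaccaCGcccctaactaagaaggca
LINC00355: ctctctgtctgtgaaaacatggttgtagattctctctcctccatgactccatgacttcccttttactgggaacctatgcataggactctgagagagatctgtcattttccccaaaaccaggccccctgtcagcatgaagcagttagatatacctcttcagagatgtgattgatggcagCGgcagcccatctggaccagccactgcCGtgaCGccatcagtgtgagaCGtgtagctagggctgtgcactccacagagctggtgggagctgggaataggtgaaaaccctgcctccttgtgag
LINC00662: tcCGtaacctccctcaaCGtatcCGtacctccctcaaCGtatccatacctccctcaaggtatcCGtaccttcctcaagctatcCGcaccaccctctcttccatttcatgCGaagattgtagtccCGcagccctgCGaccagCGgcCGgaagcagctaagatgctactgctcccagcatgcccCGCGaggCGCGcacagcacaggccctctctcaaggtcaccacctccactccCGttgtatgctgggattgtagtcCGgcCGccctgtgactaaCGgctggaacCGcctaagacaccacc

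The 3 windows hold 3, 4 and 20 CG dinucleotides in the order printed. The RefSeq start of LINC01515 was 1087 bases from the gene start used in the tables, and the others were within 65 bases. RefSeq promoters were found by symbol for 62.0% of the 171 genes, and for 55 the RefSeq start lay within 1000 bases of the start in the tables. Those 55 had a median of 5 CG dinucleotides, against 14 over all 35116 RefSeq promoters. At least 10 were present in 21 of the 55 (38.2%), against 56.4% of all promoters. By timing class, defined with the replication values that follow, medians were 11 for 21 early-S, 4 for 19 mid-S and 4 for 15 late-S genes. The TATAAA hexamer, on either strand, was found in 10 of the 55 (18.2%), against 11.5% of all promoters. These letters describe the windows only.

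The LINC genes replicated over the whole of S-phase, while most of all genes that met the same minimum replicated early. Timing is the share of 55 cells scored 40 to 70% in which the gene was 2-copy. The study cut the range of the average mid-S replication timing of domains into 9 parts. Here the range of the 2-copy share over genes was cut into 9 parts, with early-S above 77.8% and late-S up to 22.2%. The measure differs, so the classes are not those of the study. There were 58 early-S, 65 mid-S and 48 late-S LINC genes (33.9, 38.01 and 28.1%). Among all genes that passed the threshold the shares were 68.1, 22.5 and 9.43%. The median 2-copy share was 53.7% for the LINC genes and 92.7% for all genes passing. LINC genes below the threshold had a median of 49.1%, and 34.3% of them were early-S. Above and below the threshold, LINC genes thus had similar shares of early-S loci, 33.9% and 34.3%. The genes compared are not matched in level, since the median of the mean unspliced count was 16.7 for the 171 LINC genes and 33.3 for all genes passing.

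**Figure D1:**
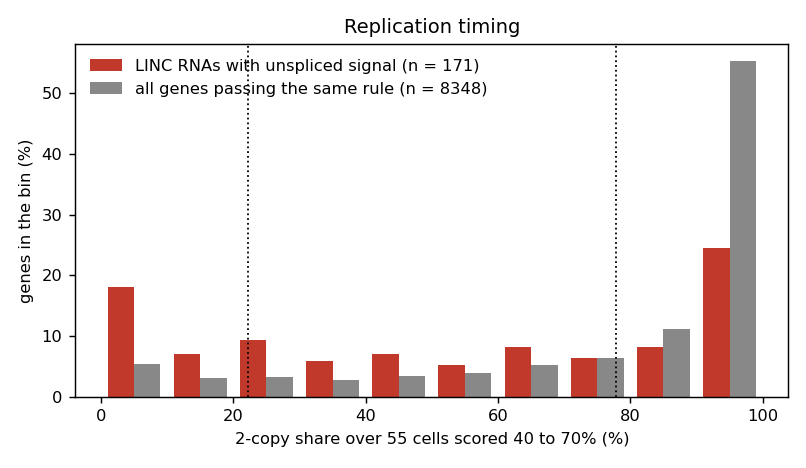
Share of genes (y axis, %) in each 10-point bin of the 2-copy share over 55 cells (x axis, %), for the 171 LINC RNAs in red and all 8348 genes passing the same threshold in grey. Dotted lines are the class limits at 22.2 and 77.8%, and the LINC genes spread over all bins while most genes sit in the highest.

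At the extremes, 17 LINC genes were 2-copy and 13 were 1-copy in every called cell. Of the 17, those with the highest unspliced medians were LINC02613, LINC01504, LINC01833 and LINC01997. LINC01833 lies 2503 bases from SIX3, a homeobox regulator of forebrain and eye development, and had a median of 33.0 unspliced counts. LINC01997, 45083 bases from MECOM, a zinc finger regulator of blood stem cells, had a median of 28 and a highest value of 2047. Of the 13, the leading genes were LINC01320, LINC02055, LINC00871 and LINC02745. LINC01320, on chromosome 2, is 1031 kb long and had between 7.57 and 92.5 unspliced counts in all 56 cells. LINC02055, on chromosome 8, is the longest at 1233 kb, with a median of 9.82 unspliced counts.

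Later-replicating LINC genes were longer and gave less unspliced RNA per kilobase. Median lengths were 89.9 kb in early-S, 178 kb in mid-S and 326 kb in late-S, and the median of the mean unspliced level per kilobase was 0.426, 0.161 and 0.0419. Over the 171 genes Spearman's rho between length and 2-copy share was -0.40, a description over loci that share chromosomes. The minimum of 5 counts is not scaled to length, and 67.3% of the 171 were longer than 100 kb. The median length was 178 kb for the LINC genes and 56.5 kb for all genes passing. Distance to the nearest coding gene also differed by class, with medians of 8955 bases in early-S, 45113 in mid-S and 131576 in late-S.

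By chromosome the LINC genes were most numerous on chromosome 2 (21 genes), 3 (18) and 5 (17), and chromosome 9 had the highest share of its LINC-named genes among them (9 of 42, 21.4%). Chromosome 5 was the most divided, with 7 early-S, 1 mid-S and 9 late-S genes. All 5 genes on chromosome 16 were mid-S, as were 9 of 13 on chromosome 13. On chromosome 11 the median 2-copy share was 1.82% over 5 LINC genes, against 32.7% over all its LINC-named genes and 72.7% over all genes of the chromosome. Chromosomes 20 and 22 held 2 each.

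In each cell the 171 genes took between 1.05 and 3.29% of the unspliced total (median 1.74%), and between 72 and 128 of them had at least 5 counts. LINC01515, on the plus strand of chromosome 10 at 65570338 to 65880289, stood far above the rest. It had a lowest value of 2.33, a median of 1589 and a highest value of 5266 unspliced counts, and 40 cells had at least 1000. It overlaps no other gene of the table. The median of LINC01515 was 1263 in the later set and 2359 in the first, and the 3 cells under 10 counts were all in the later set.

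LINC00355, on chromosome 13 and 2-copy in only 12.7% of cells, came next with a median of 532 and a range of 0.400 to 4028. LINC00355 was under 10 counts in 6 cells and at or above 1000 in 16. It contains NFYAP1, a processed pseudogene on the same strand with TPM above 0 in 34 cells. Spearman's rho between the LINC00355 count and the TPM of NFYAP1 was 0.62. LINC01572, a 429-kb mid-S gene on chromosome 16, had a median of 362 and a range of 4.20 to 3079. These 3 genes thus varied from under 10 to over 1000 counts among cells.

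Other abundant LINC genes were above 0 in every cell, and most were well above it. LINC02613 on chromosome 2 ran from 176 to 894 (median 401), LINC01618 on chromosome 4 from 100.3 to 830 (median 279) and LINC01492 on chromosome 9 from 44.2 to 524 (median 208). LINC01504 on chromosome 9 ran from 65.9 to 1797 (median 356), and LINC02245 on chromosome 2 from 17.2 to 503 (median 179). LINC00960 on chromosome 3 had a median of 134 (0.1 to 957), with 8 cells under 10 counts. LINC00534 on chromosome 8 had a median of 132 (2.88 to 591), with 2 cells under 10. In all, 12 of the 171 had at least 5 counts in each of the 56 cells, 98 were above 0 in each, and 8 had a median of 0.

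Most of them did not stand apart from other annotated genes. Of the 171, 148 (86.5%) overlapped another gene of the annotation used in the tables and 32 (18.7%) overlapped a protein-coding gene, 9 of them on the same strand. The nearest coding gene was a median of 45083 bases away, and 61 LINC genes were more than 100 kb from one. No source used here says if reads were counted by strand, so an overlapped gene's reads cannot be told apart from those of the LINC gene.

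Several of the highest values sat on such overlaps. LINC01504 shares 5309 bases, on the opposite strand, with ZFAND5, which encodes a zinc finger protein, and over 56 cells its unspliced count followed the TPM of ZFAND5 with a Spearman's rho of 0.85. LINC01618 overlaps DANCR, an abundant spliced non-coding RNA that hosts small nucleolar RNAs, at a median of 786 TPM, with a rho of 0.69. LINC02245 contains SLC1A4, a neutral amino acid transporter, with a rho of 0.64. LINC00534 overlaps TMEM64 with a rho of 0.86. LINC02613 contains RPLP0P6, a processed pseudogene of 954 bases on the opposite strand, which had TPM above 0 in 7 cells. It also contains the non-coding RP11-382L24.1, on the opposite strand, with a rho of -0.20. In 47 overlapping pairs the other gene had TPM in over 50% of cells, and rho was above 0.5 in 16. The part of the overlaps in these values was not tested.

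The spliced readout, which the choice of genes did not use, was low. Spliced RNA was above 0 in over 50% of cells for 59 LINC genes (34.5%), against 66.9% of all genes passing the unspliced threshold. It was never seen for 18, and 16 had a median of at least 10 TPM. The median over genes of the median spliced level was 0 TPM for LINC genes and 10.1 TPM for all genes passing. By class, 25 early-S, 17 mid-S and 17 late-S LINC genes had spliced RNA in over 50% of cells (43.1, 26.2 and 35.4%). Over the 171 genes, mean unspliced and mean spliced levels had a Spearman's rho of 0.48, a description over genes counted in the same libraries.

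LINC01515 was also the highest in spliced RNA, with a median of 75.0 TPM and a highest value of 357. LINC01089, an early-S gene of 8.64 kb on chromosome 12, was next with 54.1 TPM (6.25 to 240.2), although its median unspliced count was 0. LINC01089 shares 8137 bases with RHOF, a protein-coding gene on the same strand with a median of 6.285 TPM. The part of this overlap in the spliced level was not tested. LINC00662, 1-copy in almost every cell with a 2-copy share of 1.82%, had a median of 40.9 TPM and spliced RNA in all 56 cells. LINC00504 on chromosome 4, at 7.27%, had 35.05 TPM against a median of 3.95 unspliced counts. LINC00461 on chromosome 5, an early-S gene near MEF2C that is known from neural tissue, had 32.1 TPM. The reverse occurred in LINC02613 and LINC01504, with median spliced levels of 0 TPM below medians of 401 and 356 unspliced counts.

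**Figure D2:**
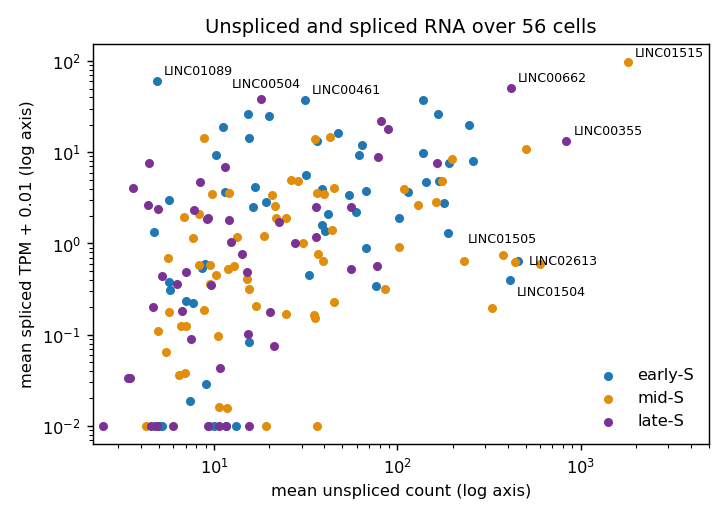
Mean unspliced count (x axis, log) against mean spliced TPM plus 0.01 (y axis, log) over 56 cells for the 171 LINC RNAs, coloured by timing class. Genes at the bottom had no spliced RNA in any cell (18 genes), and LINC01515 is highest on both axes.

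Cell-to-cell spread ranged from steady presence to bursts in a few cells. The median coefficient of variation (SD over mean, 56 cells) was 1.64 for LINC genes and 1.59 for all genes passing. Relative to a smoothed trend of spread on mean level, 97 LINC genes lay above (56.7%), against 53.3% of all genes passing. This order turned round without the highest cell of each gene, with 83 above (48.5%) against 53.8%, and in the first library set alone, with 83 above (48.5%) against 52.0%. The median coefficients turned with it, to 1.27 against 1.46 without the highest cell and 1.26 against 1.5 in the first set. A median below 10 with a highest cell of at least 100 was found in 67 LINC genes (39.2%), a share close to the 40% of all genes passing. Median coefficients were 1.78 in early-S, 1.64 in mid-S and 1.41 in late-S.

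LINC01505, a 748-kb mid-S gene on chromosome 9, lay farthest above the trend. Its median was 10.0, 28 cells were under 10, and the 3 highest cells had 8487, 3567 and 2172 unspliced counts. Its highest cell alone gave 40.02% of the sum over cells. LINC01170 on chromosome 5 had a median of 3.53, 8 cells at or above 100 and a highest value of 3632. LINC01934 on chromosome 2 had a median of 1.80 and a highest value of 2428, and LINC01091 on chromosome 4 a median of 4.82 and a highest of 1406, or 62.1% of its sum. More than 25% of the sum came from 1 cell in 44 LINC genes and more than 50% in 6. The highest cells were spread over 50 of the 56 cells, and the most LINC genes that peaked in the same cell was 12.

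At the steady end were LINC01517, LINC00486, LINC02228 and LINC01877. LINC01517, a late-S gene on chromosome 10, ran from 22.4 to 126 with a coefficient of variation of 0.39. LINC00486 on chromosome 2 ran from 8.83 to 73, LINC02228 on chromosome 5 from 1.87 to 41.1 and LINC01877 on chromosome 2 from 2.25 to 21.9. LINC02228 replicated late (2-copy in 1.82% of cells), and the other 3 had 2-copy shares between 21.8 and 51.9%.

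**Figure D3:**
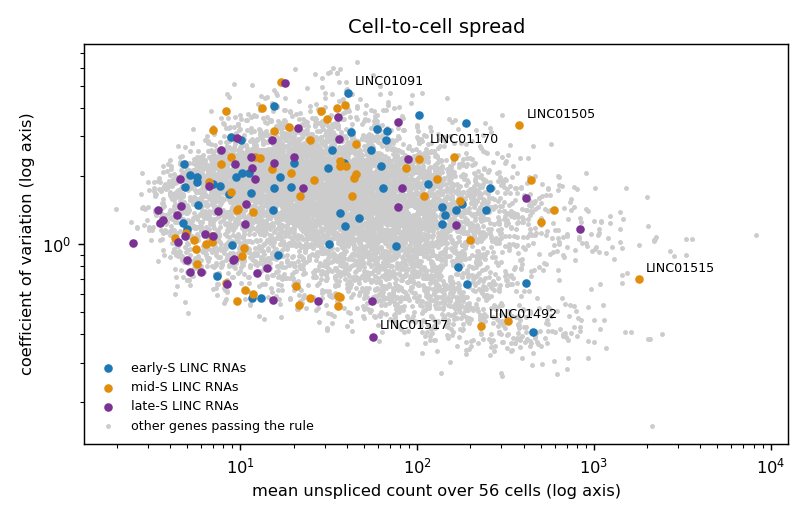
Mean unspliced count (x axis, log) against the coefficient of variation over 56 cells (y axis, log), LINC RNAs coloured by timing class and other genes passing the threshold in grey. LINC01505, LINC01170 and LINC01091 sit at the upper edge and LINC01517 at the lower edge for their level.

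The library sets moved with both ends of this range. The mean of the later set over that of the first had a median of 0.963 over the 171 LINC genes and of 0.696 over all genes passing, and 79 LINC genes (46.2%) were higher in the later set, against 25.97% of all genes passing. LINC genes below the spread trend had a median ratio of 1.08 and those above it one of 0.847, and over all genes passing the same split gave 0.840 and 0.564. LINC02613 ran from 371 to 894 in the later set and from 176 to 499 in the first, and LINC01517 from 42.6 to 126 in the later set and from 22.4 to 63.5 in the first. LINC01505 reached 1094 in the later set and 8487 in the first. The highest cell was in the first set for 89 LINC genes (52.0%), against 78.1% of all genes passing. In no LINC gene were the sets fully separated, and this was not counted over all genes passing. Fractional values were also common: a median of 7.14% of the values above 0 of a LINC gene were whole numbers (within 0.005), against 18.9% over all genes passing. The part of set and fractional counting in the spread was not tested.

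**Figure D4:**
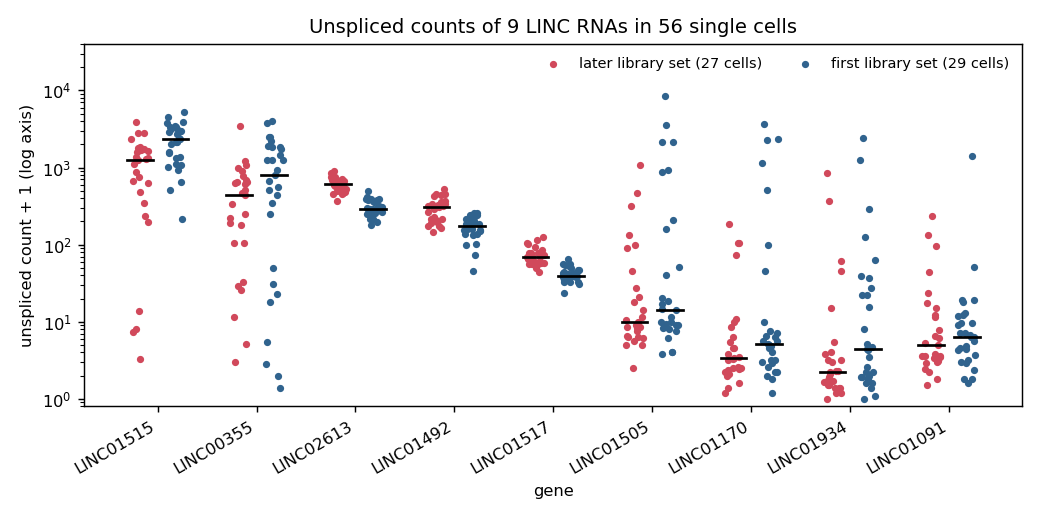
Unspliced count plus 1 (y axis, log) of 9 LINC RNAs in each cell, with the later library set (27 cells, red) left of the first set (29 cells, blue) and a bar at each median. LINC02613, LINC01492 and LINC01517 are present in all cells and higher in the later set, and LINC01505, LINC01170, LINC01934 and LINC01091 are low in most cells with a few far above.

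Correlation over cells was low in 4 of the 5 pairs of LINC genes that lie within 100 kb of each other. LINC02340 and LINC00412 on chromosome 13, the second wholly inside the first on the same strand, had a Spearman's rho of 0.73 over 56 cells. The other 4 pairs were LINC02245 with LINC02576 (0.16), LINC00571 with LINC02334 (0.20), LINC00461 with LINC02060 (0.12) and LINC01997 with LINC02082 (-0.17). All are descriptions over cells of differing depth. Both genes of each pair were close in 2-copy share, the widest gap being 61.8 and 69.8% for LINC00571 and LINC02334. Copy states come from 40-kb bins, which overlapping genes can share, so this closeness is in part built in. LINC02340 with LINC00412, LINC02245 with LINC02576 and LINC00571 with LINC02334 overlap.

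Whether a replicated LINC gene gave more RNA than an unreplicated one was asked for genes with mixed states. In 74 LINC genes neither state exceeded 80% of calls, and 72 of these were also above 0 in over 50% of cells. The two-sided Wilcoxon rank-sum test was run over all 3118 such genes of the unspliced table. At an unadjusted p below 0.05 it called 6.77% of all genes (3.78% with the higher 2-copy values, 2.98% with the higher 1-copy values) and 4 of the 72 LINC genes (5.56%), 3 of them higher at 2 copies. The LINC share was thus near the background, and after Benjamini-Hochberg adjustment over the table no LINC gene and no other gene passed (0%), the lowest adjusted p of a LINC gene being 0.623. The median was higher at 2 copies in 45 LINC genes (62.5%) and at 1 copy in 26, against 51.5% of all tested genes higher at 2 copies. With DESeq2 size factors applied the counts were 36 and 36.

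LINC00960, on chromosome 3 from 75672300 to 75742048, had the lowest p. Its 14 cells with 2 copies ran from 83.3 to 717 with a median of 266 unspliced counts, and its 38 cells with 1 copy from 0.1 to 957 with a median of 90.7. All 2-copy cells were above 80 counts, while the 1-copy cells covered the whole range and overlapped them. The difference in mean log2(count + 1) was 2.03 ± 0.50 (SE), and a permutation test of the rank sum gave p = 0.0117. The 2-copy cell was higher in 72.7% of cell pairs. In the first set alone p was 0.213 and in cells scored 45 to 65% it was 0.149. LINC00960 shares 63389 bases with ZNF717, a zinc finger gene on the opposite strand, with a rho of 0.69 between its unspliced count and the TPM of ZNF717. The spliced TPM of ZNF717 had a median of 54.2 at 2 copies and 24.8 at 1 copy (adjusted p = 0.403, Wilcoxon rank-sum test with Benjamini-Hochberg adjustment).

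LINC01551 on chromosome 14 had a median of 36.2 (0 to 364) in 30 cells with 2 copies and of 10.0 (0 to 58.5) in 23 cells with 1 copy, with a permutation p of 0.0168. The ranges overlapped from 0 upward, and every value above 58.5 was at 2 copies. LINC00621 on chromosome 13 had a median of 9 (0 to 342) in 15 cells with 2 copies and of 0.400 (0 to 407) in 39 cells with 1 copy, with a permutation p of 0.0474. It overlaps 2 pseudogenes only, and the highest cell was 1-copy.

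LINC01081 on chromosome 16 went the other way. Its 20 cells with 2 copies had a median of 4.26 (0.400 to 41.6) and its 35 cells with 1 copy a median of 7.40 (1.15 to 205), with a permutation p of 0.0179. LINC01081 had no spliced RNA in any cell. With the set mean removed its Wilcoxon p was 0.0880. Next in order, without passing, were LINC02237 (medians 57.9 at 2 copies and 3.78 at 1 copy, permutation p = 0.0589 over all cells), LINC01618 (307 and 264, p = 0.0843 by permutation) and LINC01492 (176 and 224, p = 0.0870 by permutation). The median of LINC02237 was 3.10 in the later set and 57.9 in the first, and its Wilcoxon p was 0.0284 with the set mean removed and 0.0227 as residuals on the score.

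**Figure D5:**
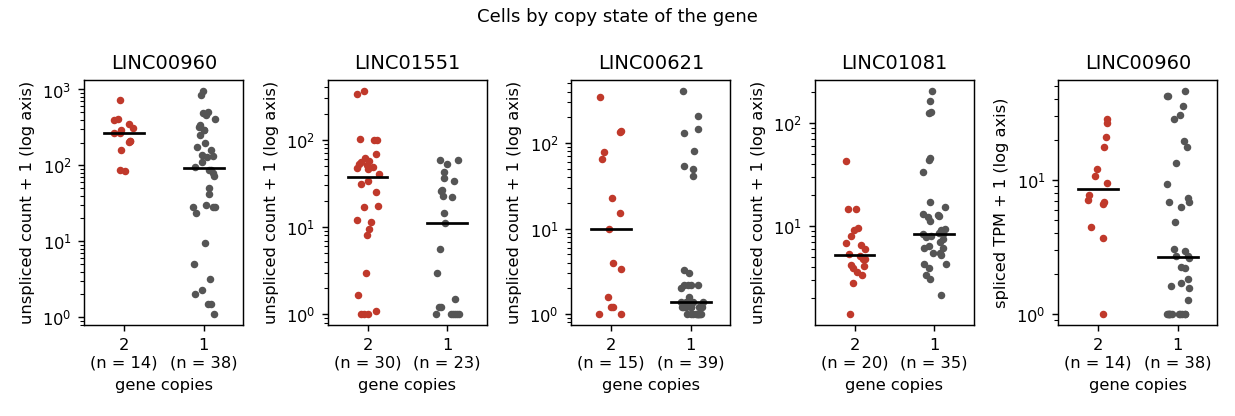
Unspliced count plus 1 (first 4 panels) or spliced TPM plus 1 (last panel), log axes, in cells with 2 copies (red, left) and 1 copy (grey, right) of the named LINC gene, with bars at the medians. LINC00960, LINC01551 and LINC00621 had the higher median at 2 copies and LINC01081 at 1 copy, with ranges that overlap in every panel.

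The most abundant gene, LINC01515, did not pass over all cells, and its copy states differed in order between the library sets. Its 22 cells with 2 copies had a median of 1632 unspliced counts (214 to 5266) and its 33 cells with 1 copy a median of 1389 (2.33 to 3948), with a permutation p of 0.478. The difference in mean log2(count + 1) was 0.99 ± 0.54 (SE). In the later set alone, 12 cells with 2 copies had a median of 1679 and 15 cells with 1 copy a median of 487 (Wilcoxon p = 0.00904). In the first set alone the order was the other way, with a median of 1453 in 10 cells with 2 copies and of 2379 in 18 cells with 1 copy (Wilcoxon p = 0.581). With the set mean removed the Wilcoxon p was 0.0339. In spliced RNA over all cells its medians were 74.2 TPM in 2-copy cells and 73.7 TPM in 1-copy cells (permutation p = 0.354). The spliced medians of LINC01515 were 74.2 and 34.9 TPM in the later set (Wilcoxon p = 0.00783) and 81 and 102.1 TPM in the first (Wilcoxon p = 0.719), each with the 2-copy cells named first, and with the set mean removed p was 0.0418. No p of LINC01515 was past the threshold after adjustment by the rank test, and the difference between the sets was not tested. For LINC01505, with its few very high cells, the highest cell was 2-copy, and medians were 12.0 at 2 copies and 8.90 at 1 copy (permutation p = 0.887). Over the 72 LINC genes the highest called cell was 2-copy in 37 (51.4%), against 53.8% of all 3118 genes, while 2-copy calls made up an average of 49.6% for the LINC genes and 53.7% for all.

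Spliced RNA could be tested for 20 LINC genes. The test called 8.43% of 2431 genes at an unadjusted p below 0.05 (5.84% with the higher 2-copy values, 2.59% with the higher 1-copy values), and 1 of the 20 (5%), again LINC00960. Its medians were 7.60 TPM (0 to 27.6) at 2 copies and 1.67 TPM (0 to 45.1) at 1 copy, with a permutation p of 0.0247. After adjustment over the table none passed (0%), with an adjusted p of 0.494 for LINC00960 by the Wilcoxon test. With the set mean removed the Wilcoxon p of LINC00960 was 0.0587. The 1 spliced call of 20 under that setting was LINC01515, against 7.65% of all tested genes called. The median was higher at 2 copies in 11 of the 20 LINC genes (55%), against 56.6% of all tested genes. LINC00960 was followed by LINC01239 (4.00 and 2.10 TPM, permutation p = 0.0773), LINC01492 (0 and 0.420 TPM, permutation p = 0.0823) and LINC01572 (2.50 and 21.7 TPM, permutation p = 0.0993). Of these, LINC01572 had the wider gap, with the higher median in its 12 cells with 1 copy.

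A count model gave more calls than the rank test. The edgeR quasi-likelihood test called 5.07% of the 3118 genes at an adjusted p below 0.05 and 5 of the 72 LINC genes, LINC01524, LINC02588, LINC01081, LINC02208 and LINC00378, which were chosen after their values were seen. With DESeq2 size factors it called 5.26% of all and 7 of the 72 LINC genes. At an unadjusted p below 0.05 it called 17.3% of all and 20 of the 72 LINC genes with TMM factors, and 17.6% of all and 19 of the 72 with DESeq2 size factors. LINC01524 on chromosome 20 had a mean of 104.7 and a median of 2.73 over 19 cells with 2 copies, and a mean of 5.57 and a median of 2.62 over 36 cells with 1 copy. Its edgeR log2 fold change was 4.29 (adjusted p = 0.000443), while the permutation p of its ranks was 0.640. The highest LINC01524 cell had 1076 counts. LINC02208 on chromosome 5 had medians of 2.50 and 3.50 and a log2 fold change of -2.72 (edgeR adjusted p = 0.00491), with 1 cell at 665 in the 1-copy group. Except for LINC01081, these calls thus fell on genes whose medians at 2 copies and 1 copy differed by no more than 1.00 count.

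Along the replication score, a generalized additive model on log10(value + 1) called no LINC gene at an adjusted p below 0.05. For unspliced RNA it called 0% of 10739 genes after adjustment and 8.4% at an unadjusted p below 0.05, and 16 of 163 LINC genes (9.82%) at the unadjusted level. The lowest p among LINC genes were those of LINC02086 and LINC02073, both on chromosome 17, and LINC01504, with Spearman's rho with the score of 0.35, 0.38 and 0.47 over 56 cells and adjusted p of 0.461, 0.470 and 0.470 (mgcv). With the library set as a term their unadjusted p changed to 0.224, 0.0369 and 0.0590, against 0.00391, 0.00470 and 0.00604 without it. For spliced RNA it called 0.0486% of 10278 genes after adjustment and 10.8% at the unadjusted level, and 5 of 59 LINC genes (8.47%) at the unadjusted level. LINC02754, LINC01445 and LINC00662 came first, with rho of -0.50, -0.33 and -0.42 and adjusted p of 0.137, 0.313 and 0.315 (mgcv). With the set as a term 2 of 59 LINC genes (3.39%) were below the unadjusted threshold, against 7.77% of all tested genes. The unadjusted p of LINC01445 became 0.106 with that term, against 0.00761 without it (mgcv). Spliced LINC genes had a median rho of -0.07, with 17 of 59 above 0, against a median of 0.01 and 52.0% above 0 over all tested genes. By edgeR with the score as a covariate, 8 of 163 LINC genes had an adjusted p below 0.05 for unspliced RNA, against 2.72% of all 10739 genes, led by LINC01524 and LINC00504, whose highest cell held 69.3% of its sum. With DESeq2 size factors it was again 8 of 163, against 2.64% of all.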

How the data were processed

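DNA and RNA libraries of a mid-S HAP1 cell were joined by the cell number in their titles. Labels name 63 such cells, 56 of which have columns in the tables. The 5 G1 DNA libraries were not used. The authors aligned DNA reads to hg38 (BWA 0.7.17-r1188 in the submitters' processing notes) and called the deposited copy state of each 40-kb bin and gene with AneuFinder. RNA was reduced, as they state, to a common number of reads and counted with featureCounts and GENCODE annotation. The authors made the unspliced values as gene-body reads less exon reads with negatives set to 0. The deposited unspliced table is titled TPM, but its totals differ between cells (425181 to 1353931) and the highest is above the common number of reads, so the deposited values were taken here to be expected counts, and their unit is not certain. The deposited spliced values are TPM, which the authors made from exon reads per cell. The RNA came from the supernatant, mainly cytoplasmic, so nuclear RNA may be under-represented.

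Copy states were compared over cells scored 40 to 70% (55 cells) in genes above 0 in over 50% of cells that had a call in 50% of cells or more and no state in over 80% of calls. The two-sided Wilcoxon rank-sum test (scipy 1.17.1) ran over the whole table with Benjamini-Hochberg adjustment at 0.05, and LINC genes also had a permutation test (100000 resamples, two-sided). Score trends used a generalized additive model (mgcv 1.9.3) over all 56 cells on log10(value + 1). For edgeR 4.0.16, expected counts were rounded, and DESeq2 1.42.0 gave size factors only. The Wilcoxon test, the edgeR copy-state test with TMM factors and the additive model were also run on simulated unspliced counts. The permutation test, the edgeR score trend and the runs with DESeq2 size factors were not. The spread trend was a lowess fit (span 0.3, statsmodels 0.14.6) of log10 squared coefficient of variation on log10 mean over all genes passing the threshold. Biotypes came from GENCODE v44 by gene ID, and 99.1% of overlapping genes were found there.

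The text names the 10 highest unspliced and 5 highest spliced medians, the 4 genes at each end of timing and of spread (ties in timing by unspliced median), genes with a copy-state p below 0.05 and otherwise the 3 lowest p, genes near the threshold and neighbours within 100 kb. The genes and the lists were chosen with earlier results of these data known. Alternatives covered cells, filters, scaling, model, pseudocount (0.1) and library set. Values of 1 overlapping gene are not reported here.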

Additional observations from a re-analysis of the deposited data

How the results depend on the processing

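Of 223 alternative values, 4 changed direction. The share of LINC genes above the spread trend less that of all genes passing became -3.44 percentage points in the first set alone and -5.22 without the highest cell. For LINC01515 in the first set alone, the share of cell pairs with the higher 2-copy cell became 0.433 unspliced and 0.456 spliced. Of LINC-named genes, 10% passed, and this became 6.37% with at least 10 counts in at least 14 cells and 5.38% with at least 5 counts in at least 28 cells. Scaling to a common unspliced total kept 160 of the 171 and added none. The 4 unadjusted unspliced copy-state calls (of 72, against 6.77% of all tested genes) became 1 of 63 in cells scored 45 to 65% (6.42% of all). They became 0 of 71 in the first library set alone (6.11% of all) and 2 of 72 as residuals on the score (5.42% of all). By edgeR with TMM and DESeq2 size factors they became 20 and 19 of 72, against 17.3 and 17.6% of all tested genes. Adjusted calls were 0 by rank tests and 5 and 7 by edgeR with the same factors (5.07 and 5.26% of all). The single spliced call (of 20, against 8.43% of all) became 0 of 14 in cells scored 45 to 65% (8.13% of all). It became 0 of 20 as residuals on the score (6.75% of all). With the 20% filter it became 3 of 38 (7.51% of all) and with no filter 3 of 74 (2.67% of all). In the later set alone it became 2 of 15 (7.08% of all), and after subtracting each cell's mean 2 of 20 (8.35% of all). Score-trend calls were 0 by the additive model and 8 by edgeR with either factor (2.72 and 2.64% of all). The cause of these changes was not tested. The median 2-copy share of the LINC genes ran from 50 to 59.3% over the alternatives, and the median coefficient of variation from 1.26 to 1.68. No paired analysis was possible because the shared cell numbers join the DNA and RNA libraries of 1 cell, and the copy states compared come from different cells. Over cells scored 40 to 70%, each copy state of a tested LINC gene held 11 to 44 cells. Tests within a single library set compared fewer cells, and some of their groups held only 4 to 10 cells. LINC00960, for example, had 6 cells with 2 copies in the later set and 8 in the first. With these numbers of cells and values that range over orders of magnitude, only large differences could pass. A p above the threshold does not show equal levels.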

Other observations

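Other named classes of long non-coding RNA gave a background for the LINC genes. Of 1202 antisense genes, 340 (28.3%) passed the same unspliced threshold, and of 77 small RNA host genes 29 did (37.7%), against 10% of LINC-named genes. Early-S shares among those passing were 58.5% for antisense and 58.6% for host genes. Spliced RNA in over 50% of cells was found in 121 of the 340 antisense genes (35.6%) and 21 of the 29 host genes (72.4%). MIR924HG, a microRNA host gene on chromosome 18, had a higher unspliced median than any LINC gene, at 2580 counts (96.9 to 17543), and was 2-copy in 69.4% of cells. MIR4300HG on chromosome 11 had 686 (225 to 1373) with a 2-copy share of 20% and a median spliced level of 0 TPM. Of 11 well-known long non-coding RNAs found, 4 passed: PURPL, PVT1, CRNDE and HOTAIRM1, with unspliced medians of 404, 256, 92.7 and 18.5. MALAT1, NEAT1, SNHG1, DANCR, SNHG8 and TUG1 were listed at 0 unspliced in every cell, with spliced medians of 2592, 104.2, 802, 786, 389 and 170 TPM. Unspliced values are gene-body reads less exon reads with negatives set to 0, so a listed 0 does not show that unspliced RNA was absent.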
